A study of Mus musculus with 12 samples.

Results

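The set described here comprised 10 genes of intestinal fat handling: the apolipoprotein genes Apoa1, Apoa4, Apob, Apoc3 and Apoc2, the lipid transfer gene Mttp, the fatty acid carriers Fabp1 and Fabp2, the triglyceride synthase gene Dgat1 and the fatty acid transporter gene Cd36. They were chosen by symbol as known components of chylomicron assembly, and all 10 were found among the 14244 genes of the expression table. Poly(A) RNA was sequenced from gut epithelial cells of male C57BL/6 littermates aged 8 weeks, with 5 wild type (WT) mice and 7 Chd8L+/- mice, 1 library per mouse. In the Chd8L+/- mice, 1 allele of the chromatin remodeler gene Chd8 lacks a block of internal exons of the large isoform. The deletion is systemic and not restricted to the epithelium. The cells were shaken off intestinal sections after EDTA and DTT treatment. Food was freely available to the mice. The gut region behind each library, and whether mice were fasted before the cells were collected, are not given in the sources used here.

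Dietary fat reaches the enterocyte as fatty acids and monoglycerides, which are taken up at the brush border, carried through the cytosol by fatty acid-binding proteins and rebuilt into triglyceride at the endoplasmic reticulum. The microsomal triglyceride transfer protein loads this triglyceride onto apolipoprotein B, and the particle acquires further apolipoproteins before it leaves the cell as a chylomicron for the lymph. Enterocytes of the proximal small intestine carry most of this work, and many of these genes are among the most abundant transcripts of the gut epithelium.

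The normalized counts had a depth of 15691662 to 20761315 reads in WT and 16701338 to 19949191 in Chd8L+/- libraries. Of these reads, the 10 genes took 1.55% to 3.07% in WT and 1.45% to 2.94% in Chd8L+/- libraries. The count of whole-gene Chd8 does not show which exons were read and so does not test the deletion. Its mean was 953 ± 85.5 (SD) in the 5 WT and 1297 ± 123 (SD) in the 7 Chd8L+/- libraries, and no library of one genotype overlapped the other (exact permutation test over the libraries, two-sided, p = 0.00126, the smallest possible, and limma adjusted p = 0.121). WT replicate 2 stood apart from the other WT libraries. On the first principal component of all genes it scored 41.0, within the Chd8L+/- range of 0.26 to 42.7, whereas the other 4 WT libraries lay between -67.5 and -26.2. The member results are therefore given with and without it. All 18 enterocyte markers were present, with a summed normalized count of 378394 to 721939.9 in WT and 303218 to 735833 in Chd8L+/- libraries. Marker sums of the proximal and distal small intestine and of the colon were all above 0 in each of the 12 libraries.

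None of the 10 genes passed the test between genotypes, although 9 of them had a lower mean in Chd8L+/- libraries (7 under quantile normalization). Fabp1 stood at 15182 against 30482 normalized counts and Apoc2 at 8249 against 14749, the largest log2 differences of the 10, and Apob was the member with the higher mean. With a threshold of 0.05 on the adjusted p (limma on log2(normalized count + 1), Benjamini-Hochberg adjustment over 12808 genes), 0 of 10 members were called, against 0.0234% of all genes tested. At an unadjusted p of 0.05 or less, 2 of 10 members were lower, against 11.8% of all genes, and 0 were higher, against 12.5%. It was Mttp and Dgat1 that turned higher under quantile normalization, while with the authors' size factors 48.6% of all genes tested were lower. The median log2 fold change of the 10 genes was -0.42, and that of all genes was 0.014. With the reads recovered from the table, edgeR called 0 members, where 0.039% of all genes were called lower. DESeq2 called 1 member, Fabp1, as lower, beside 4.61% of all genes. Without WT replicate 2, Fabp1 and Apoc2 were called lower by limma, beside 13.6% of all genes. The 7 Chd8L+/- libraries then lay wholly below the remaining 4 WT libraries for Apoa1, Fabp1 and Dgat1, which is 3 of 10 members beside 7.71% of all genes. WT replicate 2 was singled out from these same data and was the lowest WT library for 8 of the 10 members. Its removal by itself therefore moves the groups apart for most members. With all 12 libraries, the groups overlapped for every member, while the Chd8L+/- libraries lay wholly below WT for 0.273% of all genes. With the first letter of the library name as a block, whose meaning the labels do not give, Fabp1 and Apoc2 were called lower, beside 2.15% of all genes. Only Chd8L+/- replicate 7 carried the letter D, so the letter block takes no genotype difference from that library. It was the highest Chd8L+/- library for 6 of the 10 members. In bulk RNA, fewer absorptive cells and less RNA of a gene per cell cannot be told apart.

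**Figure D1:**
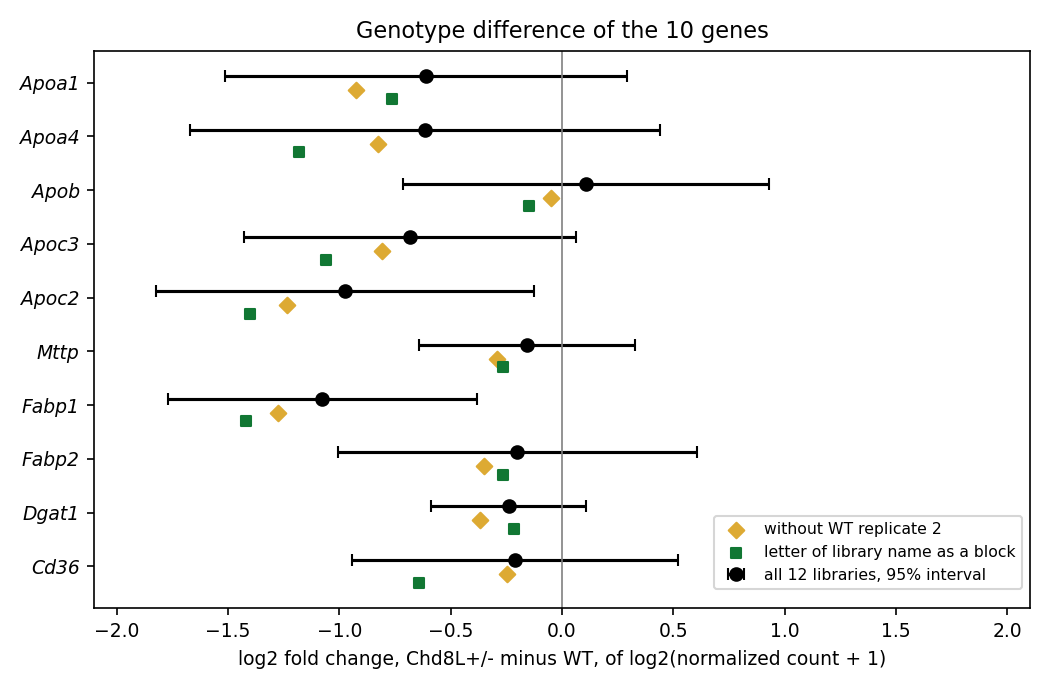
Log2 fold change of each gene between genotypes (x axis, Chd8L+/- minus WT, on log2(normalized count + 1)), with black points and bars for the estimate from all 12 libraries and its 95% interval, diamonds for the estimate without WT replicate 2 and squares for the estimate with the letter of the library name as a block. The intervals of Fabp1 and Apoc2 lie below 0 and those of the other 8 genes include 0, and under quantile normalization, which is not drawn, Mttp and Dgat1 move to 0.050 and 0.054. The squares take no genotype difference from Chd8L+/- replicate 7, the only library with the letter D.

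Fabp1 encodes the liver-type fatty acid-binding protein, a cytosolic carrier of long-chain fatty acids that is abundant in proximal enterocytes. The gene lies at chr6:71199827-71205023, plus strand (GENCODE M21, GRCm38). Its promoter is shown here beside those of Apoc2 and Apob, because these 3 were the members whose window from 250 bases before to 50 bases after the RefSeq start held one of the 4 motifs searched. The windows were read from the RefSeq promoter table of GRCm38.p6, which held 8 of the 10 members (entries for Apoc3 and Dgat1 were not used here). The Fabp1 window is chr6:71199629-71199928, plus strand, the Apoc2 window is chr7:19677892-19678191, minus strand, and the Apob window is chr12:7977427-7977726, plus strand. Capitals mark GTTAAT, a sequence found in sites of the HNF1 factors, and the TATA box letters TATAAA.
Fabp1: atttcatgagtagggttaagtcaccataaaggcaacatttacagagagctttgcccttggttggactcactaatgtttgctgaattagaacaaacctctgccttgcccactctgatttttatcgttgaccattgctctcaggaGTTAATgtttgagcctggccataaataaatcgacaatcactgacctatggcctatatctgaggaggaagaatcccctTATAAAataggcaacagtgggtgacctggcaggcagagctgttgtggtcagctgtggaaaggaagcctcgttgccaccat
Apoc2: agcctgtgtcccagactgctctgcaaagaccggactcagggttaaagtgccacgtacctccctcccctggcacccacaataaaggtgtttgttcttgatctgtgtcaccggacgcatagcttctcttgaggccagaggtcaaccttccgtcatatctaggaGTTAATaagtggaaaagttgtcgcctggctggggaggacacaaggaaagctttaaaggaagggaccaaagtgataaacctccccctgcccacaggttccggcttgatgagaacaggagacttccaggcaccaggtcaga
Apob: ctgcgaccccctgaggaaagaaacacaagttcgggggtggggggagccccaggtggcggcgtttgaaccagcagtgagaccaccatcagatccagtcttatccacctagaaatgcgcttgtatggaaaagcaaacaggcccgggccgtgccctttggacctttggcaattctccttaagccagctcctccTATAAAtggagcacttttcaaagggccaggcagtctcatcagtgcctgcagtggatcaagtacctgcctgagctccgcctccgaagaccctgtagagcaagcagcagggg
GTTAAT began 107 bases upstream of the start in Fabp1 and 89 bases upstream in Apoc2, and 7.1% of the 32851 mouse windows of this length held it on either strand. TATAAA began 30 bases upstream in Fabp1 and 60 bases upstream in Apob, and 13.6% of all windows held it. The letters AAAGTCC of the HNF4 core, held by 4.21% of all windows, and AGATAA of the GATA site, held by 11.2%, were in none of the 8 member windows. The matches do not overlap one another, and a match is a description of the letters only. Distances were counted from the RefSeq starts, which differ from the GENCODE gene starts printed for Fabp1 and Apob.

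Among the WT libraries, Fabp1 was measured at 30609, 16887, 36303, 29677 and 38931 normalized counts in replicates 1 to 5. Its lowest, median and highest values among the 7 Chd8L+/- libraries were 6312, 12929 and 27238. None of the 7 Chd8L+/- libraries reached the WT median, and 4 of them were below the lowest WT library, which was replicate 2. The mean was 30482 ± 8526 in WT (SD, n = 5) against 15182 ± 6748 in Chd8L+/- libraries (SD, n = 7). This is a log2 fold change of -1.08 with a standard error of 0.32 and a 95% interval of -1.77 to -0.38 (limma adjusted p = 0.121). The exact permutation test over the 12 libraries gave a two-sided p of 0.0139. Without WT replicate 2 the log2 fold change was -1.28 (limma adjusted p = 0.0119), and with DESeq2 on all 12 libraries it was -1.01 (adjusted p = 0.0281). Over the 23 alternatives, the adjusted p of Fabp1 ran from 0.0119 to 0.344 and its log2 fold change from -1.42 to -0.75.

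Fabp2, the intestinal-type fatty acid-binding protein, was more abundant than Fabp1 per kilobase of exon and did not separate the genotypes. In WT it was read at 105303, 48562, 79485, 44191 and 122756 normalized counts, and in Chd8L+/- libraries its lowest, median and highest values were 30399, 77087 and 98889. The WT libraries themselves spanned 2.78-fold, and 1 Chd8L+/- library lay outside their range. Its log2 fold change was -0.20 with a 95% interval of -1.01 to 0.61 (limma adjusted p = 0.769), and -0.35 without WT replicate 2. The whole of Fabp2 is overlapped on the other strand by 4933405D12Rik, and as the use of strand in the counting is not given, reads of the antisense partner cannot be told from those of Fabp2. A ratio of 2 genes within a library does not depend on how that library was scaled, and 6 such ratios were compared between genotypes. The ratio of Fabp1 to Fabp2 was 0.291, 0.348, 0.457, 0.672 and 0.317 in the WT libraries. Among Chd8L+/- libraries its lowest, median and highest values were 0.113, 0.22 and 0.593. In 5 of 7 Chd8L+/- libraries this ratio lay below the lowest WT library, a mean log2 difference of -0.88 that did not pass the test (two-sided exact permutation p = 0.0682, adjusted over the 6 ratios 0.322).

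Cd36, a membrane protein that takes up fatty acids in enterocytes as well as in macrophages, endothelium and adipocytes, was the least abundant member per kilobase of exon. Its WT values of 925, 809, 878, 734 and 1224 normalized counts were close together. The Chd8L+/- libraries spread on both sides of them, with a lowest, median and highest value of 353, 853 and 1634, 3 of them below and 2 above the WT range. Between genotypes the log2 fold change was -0.21 with a 95% interval of -0.94 to 0.52 (limma adjusted p = 0.728), and -0.25 without WT replicate 2. It was -0.021 without Chd8L+/- replicate 5, -0.026 with edgeR and -0.64 with the letter of the library name as a block, below 0 under all 23 alternatives and called under none. The SD of the log2 values was 0.84 among Chd8L+/- and 0.28 among WT libraries; the difference between these spreads was not tested. Markers of the other cell types that express Cd36 were measured beside it. Of the 10 markers of macrophages and dendritic cells, 9 were in the table and all 9 had a higher mean in Chd8L+/- libraries under every scaling tried, none called. Their summed level was 1125 to 3125 in WT and 1653 to 3715 in Chd8L+/- libraries. Endothelial markers (8 of 10 in the table) summed to 216 to 454 in WT and 175 to 336 in Chd8L+/- libraries, and of the 5 tested, 3 had a lower and 2 a higher mean. Of the 8 adipocyte markers, 5 were in the table, led by Cidec, which enterocytes also express. They summed to 1199 to 3610 in WT and 708 to 2541 in Chd8L+/- libraries, and of the 4 tested, 1 had a lower and 3 a higher mean. The part of these cells in the Cd36 values was not tested.

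Dgat1 catalyses the last step of triglyceride synthesis, the transfer of an acyl group to diacylglycerol. It varied least of the 10 genes, with a highest value only 1.6 times the lowest. The WT libraries held 14674, 9273, 14166, 14515 and 14519 normalized counts, so that 4 of them lay together and replicate 2 far below. Among the Chd8L+/- libraries the lowest, median and highest values were 9185, 11508 and 13961, and none of them reached the WT median. The log2 fold change was -0.24 (95% interval -0.59 to 0.11, limma adjusted p = 0.37), and it turned to 0.054 under quantile normalization. Without WT replicate 2 it was -0.37 (limma adjusted p = 0.064). The size of this difference thus depended on that library and its sign on the scaling.

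Mttp and Apob both serve the assembly of the particle, the former as the transfer protein that loads lipid and the latter as the structural protein that remains with the chylomicron. Mttp was read at 44189, 28007, 47569, 45317 and 42749 normalized counts in WT. In Chd8L+/- libraries its lowest, median and highest values were 27874, 35861 and 47493, nearly the same span. The log2 fold change was -0.16 with a 95% interval of -0.64 to 0.33 (limma adjusted p = 0.692) and turned to 0.050 under quantile normalization and was -0.29 without WT replicate 2. On the other strand, Mttp is overlapped over 10802 bases by the annotated antisense locus Gm43691 and over 1521 bases at one end by Trmt10a.

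Apob, at chr12:7977648-8016835, plus strand and with the promoter printed above, was measured at 55383, 31936, 61467, 60556 and 45669 normalized counts in WT. Its lowest, median and highest values in Chd8L+/- libraries were 23809, 43949 and 99161. The Chd8L+/- libraries were divided on this gene, with replicates 1, 2 and 7 above every WT library, at 99161, 81643 and 97354, and the other 4 below the WT median. The log2 fold change was 0.11 (95% interval -0.71 to 0.93, limma adjusted p = 0.884), and -0.052 without WT replicate 2. It was also below 0 without Chd8L+/- replicate 1 or 7 and with the letter of the library name as a block, so no direction can be given for Apob. The ratio of Mttp to Apob was tight in WT, at 0.798, 0.877, 0.774, 0.748 and 0.936. In Chd8L+/- libraries it ran from 0.426 to 1.17 with a median of 0.742, with 4 of 7 libraries below the WT range and 1 above it. The mean log2 difference of -0.26 did not pass the test (two-sided exact permutation p = 0.299, adjusted over the 6 ratios 0.598).

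**Figure D2:**
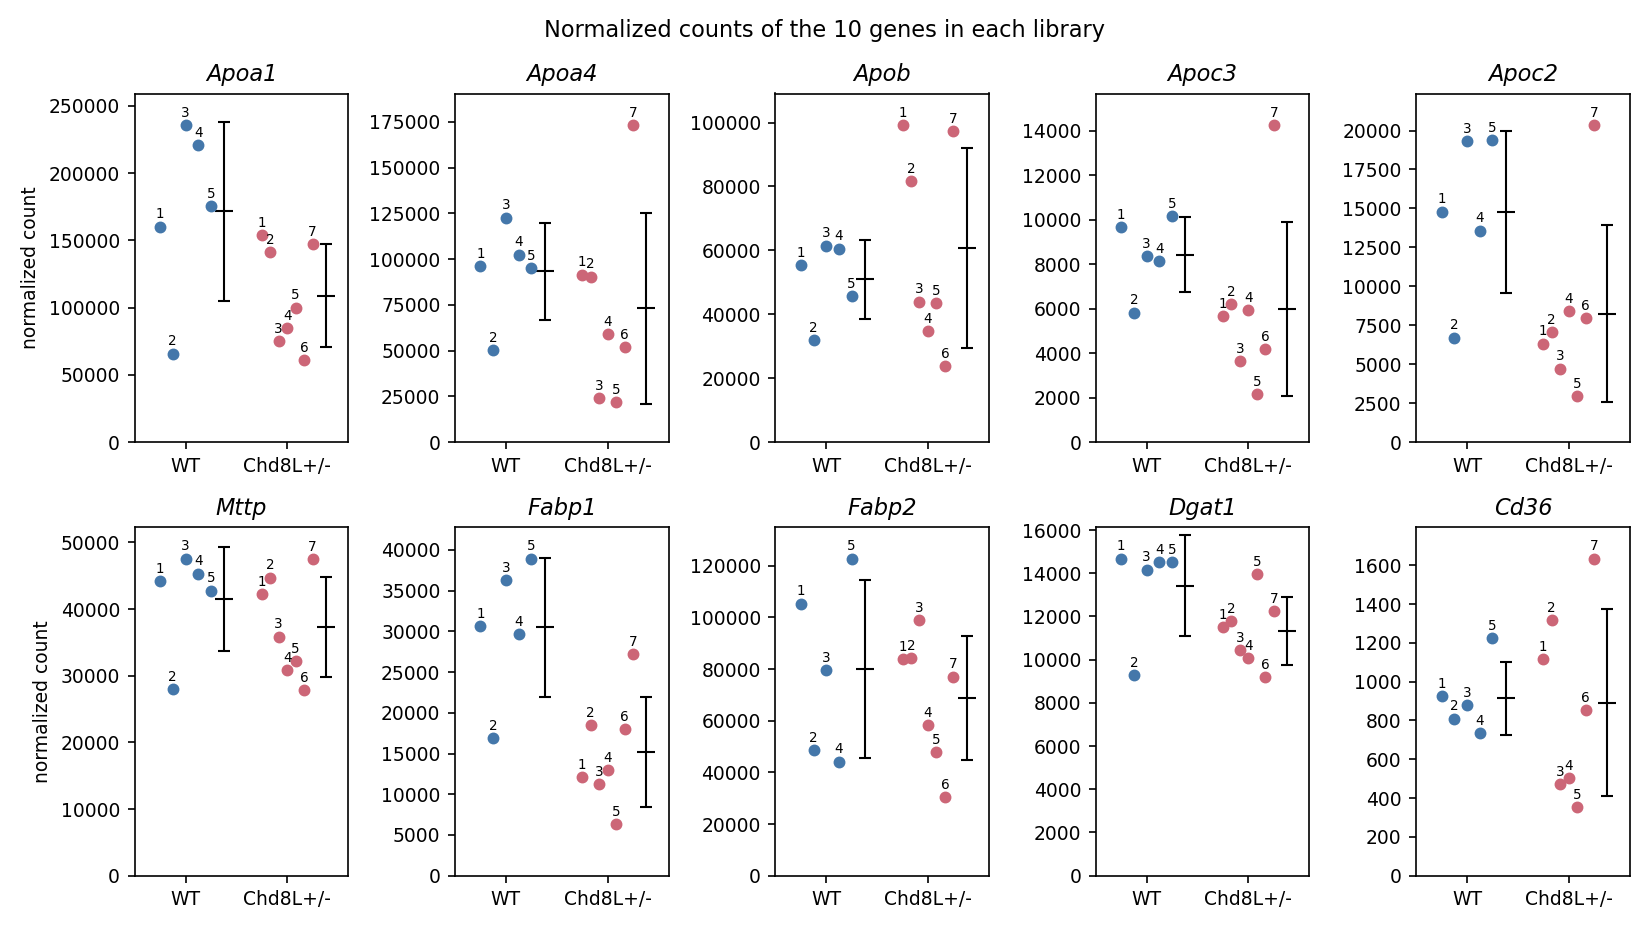
Normalized count (y axis, linear and from 0, with its own scale per gene) of each of the 10 genes in every WT (blue) and Chd8L+/- (red) library, with points labelled by replicate number and bars for the mean and SD. WT replicate 2 is the lowest WT library for 8 of the 10 genes, and Chd8L+/- replicate 7 is the highest of all libraries for Apoa4, Apoc3, Apoc2 and Cd36. By share of reads, Chd8L+/- replicate 7 is not the highest for Apoc2 and Cd36.

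Apoa1, Apoc3 and Apoa4 are neighbours on chromosome 9, where the gaps between them measure 2466 and 5059 bases in GENCODE M21, and Apoc3 lies on the opposite strand. Apoa1 encodes the main protein of high density lipoprotein and is also secreted on chylomicrons. Its WT values were 160137, 65895, 235670.3, 220953 and 175291 normalized counts, and its lowest, median and highest values in Chd8L+/- libraries were 60866, 100090.3 and 153890.3. None of the 7 Chd8L+/- libraries reached the WT median, but WT replicate 2 was lower than all but 1 of them. For Apoa1 the log2 fold change was -0.61 with a 95% interval of -1.51 to 0.29 (limma adjusted p = 0.377), and without WT replicate 2 it was -0.92 (limma adjusted p = 0.0716).

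Apoa4 encodes an apolipoprotein of nascent chylomicrons that is made mainly in the intestine and increases with fat intake. In WT it was counted at 96087, 50203, 122556, 102418 and 95202. The Chd8L+/- libraries ran from 21845 through a median of 58974 to 173139.8, a span of 7.93-fold against 2.44-fold in WT. Replicates 3 and 5 were the 2 libraries below the WT range, and replicate 7 was the 1 above it. Apoa4 had a log2 fold change of -0.62 with a 95% interval of -1.67 to 0.44 (limma adjusted p = 0.447), and -0.83 without WT replicate 2. Parts of Apoa4 are overlapped on the other strand by the annotated loci Gm10680 and Gm47528.

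Apoc3 encodes an inhibitor of lipoprotein lipase and of the clearance of triglyceride-rich particles. It was read at 9667, 5823, 8362, 8150.4 and 10168 normalized counts in WT, with replicate 2 again the lowest. In Chd8L+/- libraries the lowest, median and highest values were 2173, 5662 and 14255, with 4 of 7 libraries below the WT range and replicate 7 above it. The log2 fold change was -0.68 (95% interval -1.43 to 0.065, limma adjusted p = 0.239, two-sided exact permutation p = 0.119), and -0.81 without WT replicate 2. Within the cluster no difference in proportion between genotypes passed the test. The mean log2 difference was -0.0075 for Apoa4 over Apoa1, -0.072 for Apoc3 over Apoa1 and 0.064 for Apoa4 over Apoc3 (two-sided exact permutation p = 0.984, 0.843 and 0.78). The ratio of Apoa4 to Apoc3 ran from 8.62 to 14.7 in WT and from 6.64 to 16.2 in Chd8L+/- libraries, while that of Apoa4 to Apoa1 ran from 0.464 to 0.762 in WT and from 0.218 to 1.18 in Chd8L+/- libraries. Set against Apob, the structural protein of the particle, Apoa4 had a ratio of 1.73, 1.57, 1.99, 1.69 and 2.08 in WT. The lowest, median and highest ratios in Chd8L+/- libraries were 0.503, 1.11 and 2.18, with 4 of 7 below the WT range and 1 above (mean log2 difference -0.72, two-sided exact permutation p = 0.107, adjusted over the 6 ratios 0.322).

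Apoc2, whose promoter is printed with that of Fabp1, encodes the cofactor that lipoprotein lipase needs to release fatty acids from chylomicrons. It lies at chr7:19671579-19677941, minus strand, far from the chromosome 9 cluster. The WT values were 14789, 6703, 19309, 13567 and 19378 normalized counts. Among Chd8L+/- libraries the lowest, median and highest values were 2941, 7074 and 20341, so that 1 library, replicate 7, exceeded every WT library and the other 6 did not reach the WT median. As a share of reads, replicate 7 held 0.0944%, below WT replicates 3 and 5 at 0.0948% and 0.0985%. The mean came to 14749 ± 5205 in WT (SD, n = 5) against 8249 ± 5658 in Chd8L+/- libraries (SD, n = 7), which gave a log2 fold change of -0.98 with a standard error of 0.40 and a 95% interval of -1.82 to -0.13 (limma adjusted p = 0.162, two-sided exact permutation p = 0.0593). Without WT replicate 2 the log2 fold change was -1.24 (limma adjusted p = 0.0306). An annotated read-through locus on the same strand, Gm44805, covers nearly all of Apoc2, and reads of the pair cannot be told apart.

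The 10 genes divided by the library in which they were lowest. Fabp1, Apoc2, Apoc3, Apoa4 and Cd36 had their lowest value of all libraries in Chd8L+/- replicate 5, and Apoa1, Apob, Mttp, Fabp2 and Dgat1 had theirs in Chd8L+/- replicate 6. For Mttp and Dgat1 this was close, at 27874 and 9185 against 28007 and 9273 in WT replicate 2. By share of reads WT replicate 2 was the lowest for both. The share of all genes lowest in these libraries is not given here. The mean of the 10 centred log2 values per library was -0.88 in Chd8L+/- replicate 5, -0.56 in replicate 3 and -0.54 in replicate 6, the 3 lowest of all libraries. It was highest in Chd8L+/- replicate 7, at 0.68, above all WT libraries, of which 4 lay between 0.29 and 0.54 and replicate 2 at -0.42. These means follow the size factors. The share of reads in the 10 genes was 2.869% in Chd8L+/- replicate 7, within the 2.644% to 3.071% of those 4 WT libraries. The libraries also differed in markers of gut region. The summed level of 15 proximal small intestine markers, among them Rbp2 and Lct, was lowest in Chd8L+/- replicate 5, at 41869 against 83636 to 150469 in WT. It was also below every WT library in replicates 3 and 6, at 54035 and 81080, and was 140959.9 in replicate 7. Chd8L+/- replicate 5 also had the highest sum of 11 distal markers, at 117434, against 34218 to 113576 in WT, where replicate 3 was the highest. In Chd8L+/- replicate 6 the distal sum, at 23537, and the enterocyte sum, at 303218, were the lowest of all libraries. The ileal bile acid-binding gene Fabp6, a distal marker and no member, ran from 42.8 in Chd8L+/- replicate 6 to 22957 in replicate 5. Colon markers (15 of 17 in the table) summed to 13819 to 29916 in WT and 13098 to 42818 in Chd8L+/- libraries. The part of gut region in the member values was not tested.

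**Figure D3:**
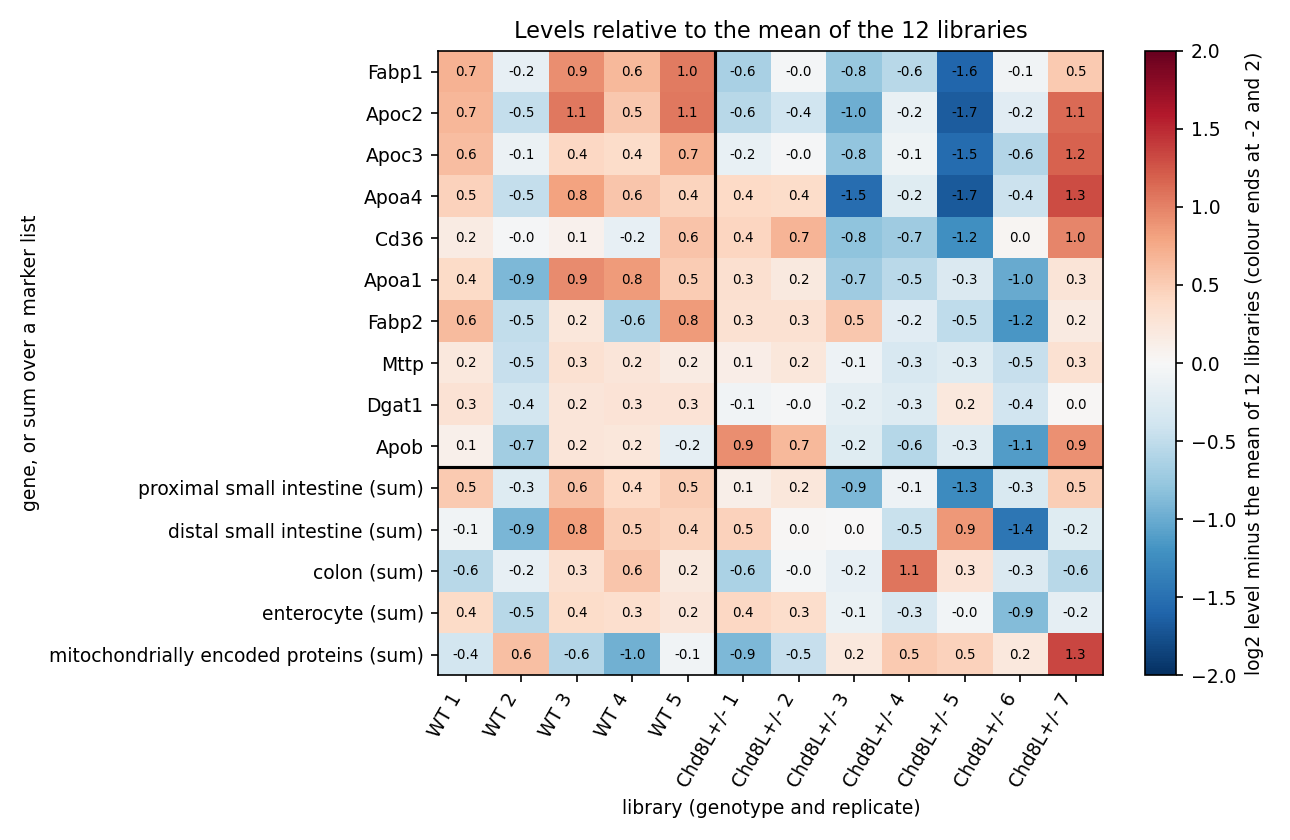
Log2 level of each gene, and of the summed markers of gut region, enterocytes and mitochondrially encoded proteins, in each library minus the mean of the 12 libraries (colour, limits at -2 and 2, with the value in each cell). Chd8L+/- replicate 5 is low for Fabp1, Apoc2, Apoc3, Apoa4, Cd36 and the proximal markers and high for the distal markers, while replicate 6 is low for Apoa1, Fabp2, Mttp, Dgat1, Apob and the distal and enterocyte markers.

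Enterocyte markers were measured beside the members. Of 18, 16 had a lower mean in Chd8L+/- libraries with the size factors and 11 under quantile normalization, none called by limma and 3 with an unadjusted p no higher than 0.05, giving a median log2 fold change of -0.32. In WT replicate 2 their sum was 378394, against 655596 to 721939.9 in the other WT libraries. Markers of proliferating cells went the other way. All 12 had a higher mean in Chd8L+/- libraries under every scaling tried, 11 of them with an unadjusted p no higher than 0.05 and none called. Their sum was 14869 in WT replicate 2, 3432 to 7860.1 in the other WT libraries and 8581 to 15547 in Chd8L+/- libraries. All 7 crypt stem cell markers had a higher mean too (6 under quantile normalization), 2 with an unadjusted p no higher than 0.05, and their median was 0.47 on the log2 scale. Of the 10 stromal markers 8 were tested, and all 8 had a higher mean under every scaling tried, 5 with an unadjusted p no higher than 0.05 (median 1.90). Their sum was 132 to 616 in WT and 198 to 2418 in Chd8L+/- libraries, highest in replicate 5. All 14 markers of tuft cells, the chemosensory cells of the epithelium, had a lower mean under every scaling tried and an unadjusted p no higher than 0.05 (median -1.87), and their sum was 3651 to 34209 in WT and 2098 to 14505 in Chd8L+/- libraries. None of the stem, stromal or tuft cell markers was called by limma at the adjusted threshold. Mitochondrially encoded transcripts took 7.6% to 26.9% of the reads in WT (median 12.7%, highest in replicate 2) and 9.35% to 35.6% in Chd8L+/- libraries (median 21.7%, highest in replicate 7). Hepatocytes make most of the same apolipoproteins, and of 12 hepatocyte markers 7 were in the table, while Alb, Hp, Ahsg, Fgb and Fga were not analysed here. Their sum was 17358 in WT replicate 2, 3025 to 8896 in the other WT libraries and 9467 to 20667 in Chd8L+/- libraries, and it was led by Cps1, an enzyme that enterocytes also express. The part of these differences in the member values was not tested.

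Levels of different genes were set beside each other per kilobase of exon. On this scale Apoa1 was the most abundant member, at 138826 ± 54061 normalized counts per kilobase in WT (SD, n = 5) and 88197 ± 30728 in Chd8L+/- (SD, n = 7). Fabp2 followed in WT at 82963 ± 35669, then Fabp1 at 55120.3 ± 15417 and Apoa4 at 51401 ± 14597. Lower in the order came Apoc2 at 18142 ± 6402, Apoc3 at 8318 ± 1667, Mttp at 6698 ± 1254, Dgat1 at 4394 ± 763 and Apob at 3660.3 ± 888, and Cd36 was last at 255 ± 52.3. The steps from Apoa4 to Apoc2, from Apoc2 to Apoc3, from Mttp to Dgat1 and from Apob to Cd36 held in all 12 libraries. Apoa1 exceeded Fabp2 in 11 libraries and Fabp2 exceeded Fabp1 in 10. Fabp1 exceeded Apoa4 in 5 of 12 libraries, Apoc3 exceeded Mttp in 7 and Dgat1 exceeded Apob in 9. Over the WT libraries, the ranges of neighbours in the order were apart for 2 of the 9 pairs, Apoa4 with Apoc2 and Apob with Cd36. The ranges of the other 7 pairs overlapped. Within single WT libraries, Apoa1 over Fabp2, Apoc2 over Apoc3, Apoc3 over Mttp, Mttp over Dgat1 and Dgat1 over Apob each held in all 5. Fabp2 exceeded Fabp1 in 4 WT libraries and Fabp1 exceeded Apoa4 in 3. Fabp1 with Apoa4, Apoc3 with Mttp and Dgat1 with Apob stood in the opposite order in the Chd8L+/- means, with Apoa4 at 40301 ± 28730.3 above Fabp1 at 27454 ± 12203, Mttp at 6013 ± 1217 above Apoc3 at 5925 ± 3859, and Apob at 4348 ± 2245 above Dgat1 at 3702 ± 516.

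**Figure D4:**
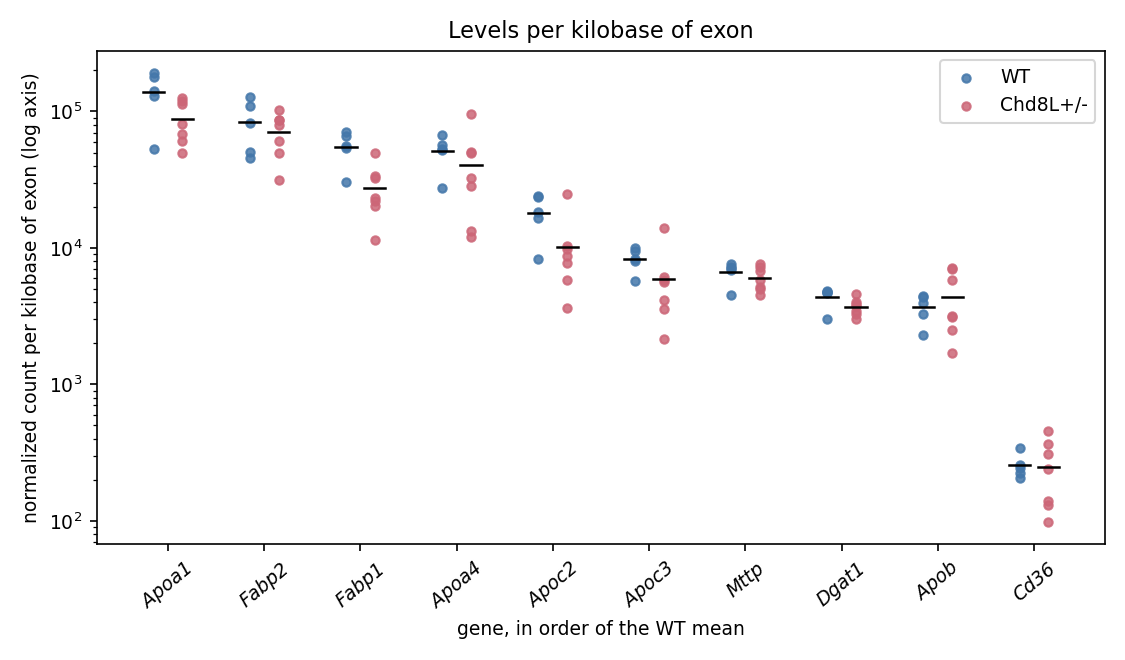
Normalized count per kilobase of exon (y axis, log scale) of the 10 genes in each WT (blue) and Chd8L+/- (red) library, ordered by the WT mean, with black bars for the group means. The levels run from 138826 for Apoa1 to 255 for Cd36 in WT, and over the 12 libraries the ranges of neighbouring genes overlap for 8 of the 9 pairs, all but Apob and Cd36.

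The gene with the most similar pattern was sought for the members by the mean absolute difference, over the 12 libraries, of log2 values centred on each gene's mean. Fabp1 was nearest to Rbp2, the retinol-binding protein of enterocytes and one of the proximal markers, at 0.195, and next to it came Apoc2, at 0.206. Apoc2 in turn was nearer to Fabp1 than to any gene outside the set, of which Prap1 was the first at 0.221. Apoa4 was nearest to the ectoenzyme gene Enpp3 at 0.174. Mttp was nearest to Plin3, a coat protein of lipid droplets, at 0.0711, and Dgat1 to the adaptor gene Stap2 at 0.0701. For the rest, Apoc3 was nearest to the carbonyl reductase gene Cbr1 (0.242), Apob to Nckap5 (0.157), Fabp2 to Gprin3 (0.246) and Cd36 to the arginase gene Arg2 (0.25). The mean pattern of the 10 genes was nearest to Scp2, the sterol carrier protein gene, at 0.118, followed by Ndfip2, H2-Q2, the trehalase gene Treh and Ttc39c. These are the closest of 12808 genes and share the libraries' scaling with the members. For scale, the members' own mean absolute deviation ran from 0.219 for Dgat1 to 0.741 for Apoc2, with 0.492 for Cd36 and 0.503 for Fabp2.

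Beyond the 10 genes, 112 further genes of fat absorption were listed by role, of which 106 were in the table and 102 were tested. None was called by limma, 14 of 102 were lower and 7 of 102 higher at an unadjusted p of 0.05 or less, where 11.8% and 12.5% of all genes were, edgeR called 0 and DESeq2 called 2 lower and 1 higher, beside 4.61% and 1.84% of all genes. Of the 102, 74 had a lower mean in Chd8L+/- libraries with the size factors (72.5%) and 54 under quantile normalization (52.9%), with median log2 fold changes of -0.13 and -0.013. Without WT replicate 2, 20 were called lower and 5 higher, beside 13.6% and 14% of all genes tested. The 2 genes with the smallest unadjusted p in each role are named here. Their log2 fold changes are given with the standard error, and each kept its direction under quantile normalization and without WT replicate 2.

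In fatty acid uptake and activation, 4 of 9 genes had a lower mean. The smallest p values were those of Dbi, the acyl-CoA-binding protein, at -0.78 ± 0.25, and of the acyl-CoA synthetase gene Acsl4, at -0.90 ± 0.30 (limma adjusted p = 0.124 and 0.127). In triglyceride resynthesis, 12 of 13 had a lower mean (11 under quantile normalization), led by the acyltransferase gene Agpat2 at -0.69 ± 0.30 and the phosphatidate phosphatase gene Lpin2 at -0.50 ± 0.24 (limma adjusted p = 0.188 and 0.215). Dgat2, the other enzyme of the step that Dgat1 catalyses, was measured at 5758 ± 1637 in WT (SD, n = 5) against 4175 ± 2183 in Chd8L+/- libraries (SD, n = 7) (limma adjusted p = 0.304). In sterol absorption and esterification, 7 of 11 had a lower mean and 3 under quantile normalization. Soat1, which esterifies cholesterol, was at -0.69 ± 0.18 with 6 of 7 Chd8L+/- libraries below the WT range, and the cholesterol transfer gene Stard3 at -0.39 ± 0.17 (limma adjusted p = 0.121 and 0.179).

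Among other apolipoproteins and factors of Apob editing, 7 of 12 had a lower mean and 6 under quantile normalization. Apobec1, the deaminase that edits Apob mRNA into the shorter intestinal form, was measured at 1137 ± 294 in WT (SD, n = 5) against 723 ± 184 in Chd8L+/- libraries (SD, n = 7), a log2 fold change of -0.65 ± 0.23 (limma adjusted p = 0.13). Apoh, a phospholipid-binding plasma protein, was at -1.39 ± 0.48 but had only 32.3 normalized counts on average in WT (limma adjusted p = 0.13). In chylomicron assembly and export from the endoplasmic reticulum, 21 of 23 had a lower mean with the size factors and 12 under quantile normalization. Pla2g12b, which supports the lipidation of lipoproteins, was at -0.57 ± 0.23, and Sar1b, the GTPase of the transport vesicles that carry chylomicrons, at -0.44 ± 0.20 (limma adjusted p = 0.155 and 0.195). In lipid droplet storage and breakdown, 10 of 11 had a lower mean and 9 under quantile normalization, led by the triglyceride lipase gene Pnpla2 at -0.57 ± 0.21 and the droplet fusion gene Cidec at -1.01 ± 0.43 (limma adjusted p = 0.147 and 0.179). The transcription factors were divided, with 13 of 23 lower and 9 under quantile normalization. The nuclear receptor genes Nr1h4, for bile acids, and Nr5a2 had higher means, at 0.83 ± 0.31 and 0.81 ± 0.29 (limma adjusted p = 0.145 and 0.134). Nr1h4 is also one of the distal small intestine markers, and its highest value, 1848 normalized counts, was in Chd8L+/- replicate 5. Of those 11 markers, 9 had a lower mean in Chd8L+/- libraries (6 under quantile normalization), and Nr1h4 was one of the 2 with a higher mean.

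**Figure D5:**
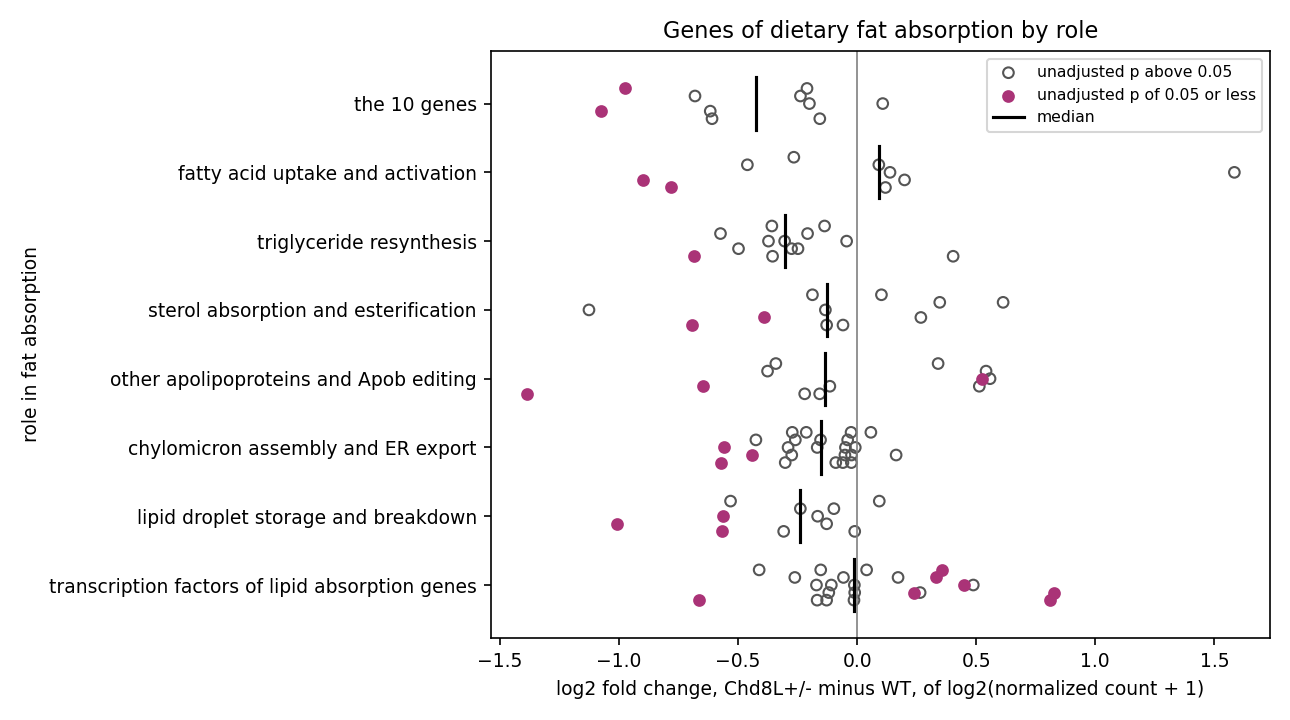
Log2 fold change between genotypes (x axis, Chd8L+/- minus WT, on log2(normalized count + 1)) of the 10 genes and of the other tested genes of fat absorption by role, with filled points for an unadjusted p of 0.05 or less and bars for the median. No gene passed the adjusted threshold, and the leftward medians of sterol absorption and of the transcription factors turn to 0.048 and 0.13 under quantile normalization, which is not drawn.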

How the data were processed

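Single-end reads of poly(A) libraries were aligned by the authors to mm10 (Tophat2) and passed through DESeq2. In the deposited table each value is a signal, namely the reads of a gene divided by a size factor for its library. What counted the reads, on which annotation and with which strand setting is not given in the sources used here. Values were whole multiples of the worth of 1 read (within 0.000392 of a whole number for 100% of values), so reads were recovered. Totals are given at the head of the results, and for the members counting error was small beside the spread between mice. Columns were matched to the mice by library name, and 0 belonged to other samples. Of the gene rows, 21 with a name turned into a date and 4 with a repeated name are not named.

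Genotypes were compared over all 12 libraries, without a covariate, by limma (3.58.1, R 4.3.3; trended eBayes) on log2(value + 1), keeping genes whose mean was 10 or more. For single genes and ratios an exact permutation test, two-sided, was added (smallest possible p 0.00126). Alternatives were other pseudocounts, filters and scalings, edgeR 4.0.16 and DESeq2 1.42.0 on recovered reads, blocks, and each library left out. The steps were tested on simulated data. The members, gene lists and tests were chosen with earlier results of these data known, and the list of mitochondrially encoded genes was added after its values were seen. The genes named are the 10 members, Chd8, for each role the genes past the threshold or else the 2 with the smallest p, the gene nearest in pattern to each member (that of Apoa1 is not reported here), the 5 nearest to their mean, and markers whose values stand beside a result. Dgat2, named beside Dgat1, was chosen after its values were seen. Positions come from GENCODE M21 and promoters from RefSeq.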

Additional observations from a re-analysis of the deposited data

Results flagged for a closer look

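Dixon's test flagged 4 of the 34 groups of values examined, where chance would give about 1.7 over all 34 if they were independent. They are not, as the mean of the 10 genes holds Apoa4, Mttp and Dgat1, and no chance figure is given for a single library. All 4 flags fell on WT replicate 2, which was farther from the other 4 WT libraries than the test allows. On the log2(normalized count + 1) scale, Apoa4 was 15.62 there, with the nearest WT library at 16.54 and the farthest at 16.90. Mttp was 14.77, with the other WT libraries from 15.38 to 15.54, and Dgat1 was 13.18, with the other WT libraries from 13.79 to 13.84. The mean of the 10 centred log2 values was -0.42 in this library and 0.29 to 0.54 in the other WT libraries.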

How the results depend on the processing

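The 10 genes were recomputed under 23 alternatives each. Of the 230 log2 fold changes, 219 kept their direction and their side of the adjusted threshold. Passing calls appeared for Fabp1 under 3 alternatives and for Apoc2 under 2, so that DESeq2 called 1 member and the letter of the library name as a block called 2 (Fabp1, adjusted p = 0.0434, and Apoc2, 0.047, limma), beside 2.15% of all genes called lower. Leaving out each library called 0 to 2 members, the 2 without WT replicate 2. Of the other 102 pathway genes, 3 were called by DESeq2, 2 with the letter block, and 0 to 25 with a library left out (25 without WT replicate 2, 1 without Chd8L+/- replicate 6). The median of the members stayed between -0.70 and -0.29. Quantile normalization turned Mttp to 0.050 and Dgat1 to 0.054. Apob turned to -0.15 with the letter block and ran from -0.052 to 0.30 with a library left out. The ratios that crossed 0 when a library was left out were Apoa4 over Apoa1 (-0.18 to 0.22), Apoc3 over Apoa1 (-0.23 to 0.13) and Apoa4 over Apoc3 (-0.022 to 0.19). With the longest transcript as the length, Mttp stood at 9863 and Dgat1 at 6459.6 normalized counts per kilobase over all libraries, against 6298 and 3991. For these changes the cause was not tested. Replicate numbers gave no pairing, as deviations of same-numbered libraries correlated at -0.34 to 0.19, and a block for the replicate number called 0 genes in all, with 1183 lower and 1144 higher at an unadjusted p of 0.05 or less (Fabp1 -1.35, adjusted p = 0.224, median of the members -0.51, limma). Replicate numbers 6 and 7 exist in Chd8L+/- only, so these libraries do not inform the genotype difference of that fit.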

Other observations

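The library names carry a number whose meaning the labels do not give, and 4 of these numbers were held by both genotypes. Numbers 2 and 20 each held 1 WT and 1 Chd8L+/- library. Number 3 held 2 WT and 1 Chd8L+/- library, and number 22 held 1 WT and 2 Chd8L+/- libraries. With the size factors of the authors, within all 4 numbers Apoc3, Apoc2, Fabp1 and Dgat1 had the lower mean in Chd8L+/- libraries, with log2 differences of -2.52 to -0.73 for Fabp1, -2.71 to -0.59 for Apoc2, -1.94 to -0.28 for Apoc3 and -0.36 to -0.012 for Dgat1. Apoa1, Apoa4 and Fabp2 were lower within 3 of the 4 numbers, Mttp and Cd36 within 2 and Apob within 1. The share of all genes that were lower within all 4 numbers was not computed, so these counts have no background beside them. A fit with this number as a block called 0 genes with limma, against 1261 lower and 1128 higher at an unadjusted p of 0.05 or less, and did not call Fabp1 (-1.28, adjusted p = 0.185). Number 30 was held by Chd8L+/- replicates 4 and 6 only, and these do not inform the genotype difference of that fit. Deviations of libraries that share a number from their group means correlated at -0.62 to 0.23, and at -0.38 to 0.23 for pairs across genotypes. What the numbers stand for was not tested.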
